A study of Mus musculus with 9 samples.

Results

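An embryonic stem cell (ESC) line that carries doxycycline-inducible Sox17, not exposed to doxycycline (dox), was compared with wild-type R1 ESCs, with 1 RNA-sequencing library on each side. Members were all rows of the expression table with a usable value in both libraries and at least 1 FPKM (fragments per transcript length and library depth, Cufflinks' unit of level) in 1 of them. This left 13070 of 37975 rows, of which 11843 were protein-coding. The series has 9 libraries, 1 per group. The 7 libraries of the Sox17 line (labelled Sox17 overexpression) are ESCs without dox, ESCs after 7, 21, 35 and 49 h and 6 days with dox at 100 ng/ml (the 6-day sample carries the word SORT in its label), and Sox17-XEN, a line whose label names 30 days with and 30 days without dox. Wild-type R1 ESCs and wild-type extraembryonic endoderm stem (XEN) cells are the other 2, neither given dox. Per the labels, ESCs of both lines shared the dish with mouse embryonic fibroblasts in medium with serum and the cytokine LIF. The parent of the Sox17 line, whether it is 1 clone, its passage number and the site of its transgene are not given in the sources used here.

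Because there is 1 library on each side, no p-value is given, no difference has a replicate error, and culture, passage, feeder batch and library preparation cannot be told apart from the line. A difference is the Sox17 line without dox minus R1 in log2(FPKM + 1). A difference of 2 log2 units (4-fold) or more is called higher or lower, and 1 log2 unit (2-fold) is the smaller size named beside it. The sequencing depth of the Sox17 line library was 106% of that of R1, read from the commonest ratio between low FPKM values, which 14.2% of 2733 low values shared. Absolute depth is unknown. Among all rows compared, 43.0% share their listed locus with another row, and the lower bound that the authors give is 0 in both libraries for 98.6%.

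As background, ESCs hold Pou5f1, Nanog and Sox2 in a self-sustaining network, and SOX17 is a transcription factor of the endoderm lineages that can drive ESCs toward an extraembryonic endoderm state when forced. Inducible lines are watched for leak, the expression of the transgene without inducer. ESCs on feeders give RNA of both cell types, and fibroblast transcripts such as those of collagen I and fibrillin-1 can then stand for the feeders. Mitochondrial DNA codes for subunits of the respiratory chain, for 2 ribosomal RNAs and for transfer RNAs, all transcribed as long precursors.

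Both libraries had the ESC markers. Of the 7 markers (Pou5f1, Nanog, Sox2, Zfp42, Esrrb, Utf1 and Dppa5a), Esrrb was left out because its status was not OK, and the other 6 were at 1 FPKM or more in each library, with a summed level of 2996 FPKM in the Sox17 line without dox and 4570 FPKM in R1. Pou5f1 was at 723 FPKM in the Sox17 line and 1080 FPKM in R1, and Nanog was at 169 FPKM in each. The primitive endoderm regulators Gata4 (0.824 and 0.655 FPKM), Gata6 (0.282 and 0.214 FPKM) and Sox7 (0.256 and 0.105 FPKM) were under 1 FPKM in the Sox17 line and in R1.

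Sox17 itself (ENSMUSG00000025902, mm9 chr1:4481009-4486494) was at 0.909 FPKM in the Sox17 line without dox and 0.163 FPKM in R1. The difference was 0.71 log2 units, and the ratio of the FPKM values was 5.56. Both values are under 1 FPKM, so the gene is not among the rows compared, and the difference depends on the pseudocount, at 1.94 log2 units with a pseudocount of 0.1 FPKM. The authors' interval reaches from 0 to 2.67 FPKM in the Sox17 line and from 0 to 0.577 FPKM in R1. With dox the same line had 283 FPKM at 7 h. A value per gene does not separate transcripts of the transgene from those of the cells' own gene.

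Of the listed genes that are high in the dox libraries within hours, the 5 compared differed by less than 1 log2 unit between the Sox17 line without dox and R1. Of the 10 genes on the list of early Sox17-responsive genes, which was chosen from earlier results of these data, 5 reached 1 FPKM in either library. Their median difference was 0.04 log2 units and 0 were past 1 log2 unit, where 4.06% of all rows compared were higher and 2.1% lower by that size. For 5 genes, 0 is near those shares. Choosing genes by a response to dox favours low levels without dox, so the levels below are a description and cannot test for leak. The homeobox gene Nkx2-9 was at 1.56 FPKM in the Sox17 line without dox and 1.01 FPKM in R1, against 47.2 FPKM after 7 h of dox. The aspartic protease gene Pga5 was at 0.923 FPKM without dox and 1.497 FPKM in R1, against 19.9 FPKM at 7 h. The muscle-type phosphoglycerate mutase gene Pgam2 was at 2.36 FPKM without dox and 2.28 FPKM in R1, against 17.8 FPKM at 7 h. Sox2ot, a non-coding transcript that spans Sox2, was at 0.526 FPKM without dox and 1.62 FPKM in R1, against 12.6 FPKM at 7 h. The laminin gene Lama1 was the one with the highest difference, with 3.92 FPKM without dox and 2.40 FPKM in R1 (0.53 log2 units), against 40.1 FPKM at 7 h.

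Over all rows compared, 55 (0.421%) were higher in the Sox17 line without dox and 34 (0.26%) were lower, 89 (0.681%) in all. Few of these were protein-coding, with 12 higher (0.101% of protein-coding rows) and 2 lower (0.0169%). Among the 1227 rows of other types, 75 (6.11%) were past 2 log2 units in either direction. The spread over genes was narrow once both libraries had at least 5 FPKM, where the central 95% of differences ran from -0.90 to 1.01 log2 units over 8031 rows. Where the lower of the 2 values was under 1 FPKM, it ran from -2.31 to 2.80 log2 units over 1091 rows, which hold 39 of the rows called higher and 30 of those called lower. These ranges describe genes and are not the error of a single gene.

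**Figure D1:**
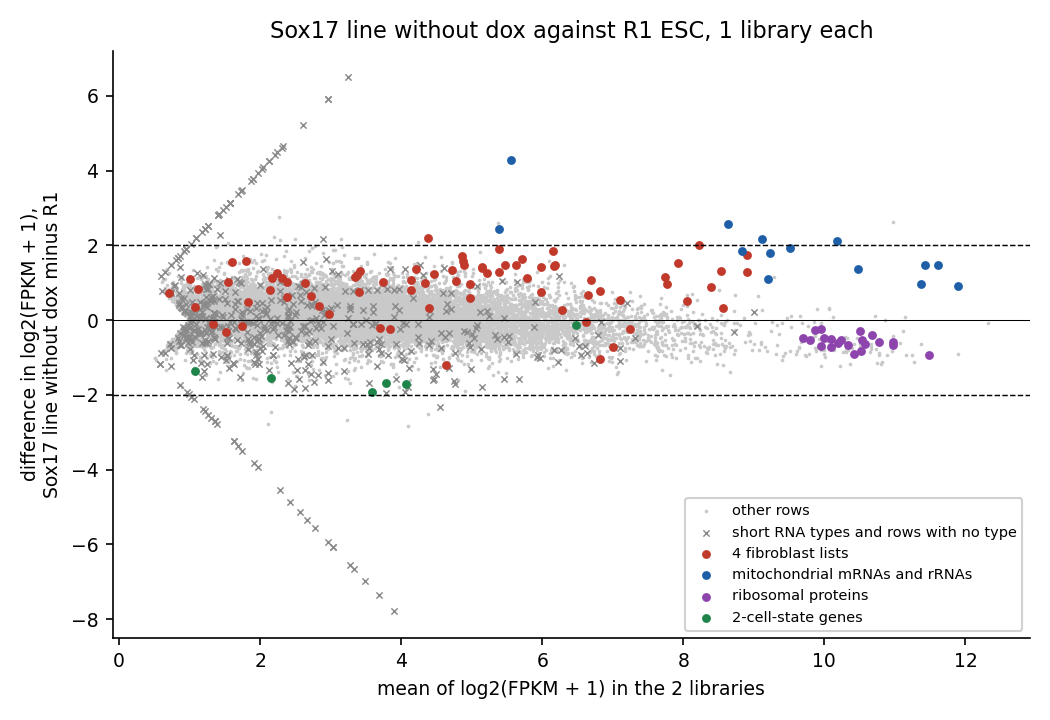
Difference in log2(FPKM + 1) between the Sox17 line without dox and R1 (vertical axis, log2 units) against the mean log2(FPKM + 1) of the 2 libraries (horizontal axis), with 1 point for each of 13070 rows and dashed lines at 2 and -2. Short RNA rows listed at 0 in 1 library form the 2 diagonal arms, fibroblast genes (red) lie mostly above 0, mitochondrial transcripts (blue) all lie above 0, and ribosomal protein genes (purple) all lie below 0.

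Other pairs of single libraries give a scale for these counts. Between dox for 35 h and for 21 h in the Sox17 line, 35 rows were higher (0.267%) and 35 lower (0.267%). Among protein-coding rows 0 were higher and 1 was lower (0.00835%). Between 49 h and 35 h, 61 rows were higher (0.469%) and 44 lower (0.339%), with 17 (0.143%) and 1 (0.00843%) among protein-coding rows. Between Sox17-XEN and wild-type XEN, 409 rows were higher (3.26%) and 238 lower (1.9%), with 321 (2.85%) and 153 (1.36%) among protein-coding rows. The pair without dox, with 55 rows higher and 34 lower, had all-row counts near those of neighbouring dox times in 1 line. Its protein-coding counts were 12 and 2, against 0 and 1 for 35 h and 17 and 1 for 49 h. The pair of XEN lines had more of each. Outside the XEN pair most of these rows were not protein-coding, so the counts do not measure how alike the cells are.

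Most rows past 2 log2 units are short RNAs. Of the 55 higher rows, 38 are of short RNA types or match no type, and 36 of the 55 are listed at 0 in R1. Of the 34 lower rows, 29 are of such types, and 28 are listed at 0 in the Sox17 line. Small nucleolar RNAs are the largest type, with 16 higher and 13 lower rows. Rows annotated as miRNA make up 6 higher and 5 lower rows, of which 5 carry only a clone name and no sequence is shown for them. The 6 rows with a miRNA symbol past 2 log2 units include the largest difference of the comparison, so the 5p mature sequence of each is shown (RefSeq, GRCm38.p6, 5′ to 3′, seed bases 2 to 8 in capitals).
mmu-miR-3062-5p: gGAGAAUGuaguguuaccguga
mmu-miR-7a-5p: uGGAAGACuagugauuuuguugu
mmu-miR-3074-5p: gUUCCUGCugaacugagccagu
mmu-miR-1199-5p: uCUGAGUCccggucgcgcgg
mmu-miR-1188-5p: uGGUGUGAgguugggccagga
mmu-miR-1193-5p: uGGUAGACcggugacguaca
The 6 seeds are all different. Mir3062 (5p arm at GRCm38.p6 chr11:68990638-68990659) was listed at 0 in the Sox17 line without dox and stood at 220 FPKM in R1, and Mir7-1 (chr13:58392841-58392863) was listed at 0 in the Sox17 line and stood at 99.5 FPKM in R1. Mir3074-1 was at 20.4 FPKM, Mir1199 at 16.0 FPKM, Mir1188 at 14.2 FPKM and Mir1193 at 12.8 FPKM in the Sox17 line, and all 4 were listed at 0 in R1. Their annotated hairpins are 85 to 121 nt long, and FPKM of such short rows in a library of longer RNA fragments is not a level of the mature miRNA. In the ESC dox libraries of the line Mir3062 was at 199 FPKM at 7 h and Mir7-1 at 111 FPKM at 21 h, each listed at 0 at the other times. Mir3074-1 was listed at 0 at 7 h and day 6 and stood at 24.7, 80.9 and 52.7 FPKM at 21, 35 and 49 h, and the other 3 were listed at 0 throughout. Rows of this kind were thus listed at 0 in some libraries of the Sox17 line and high in others.

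A pattern of transcript length ran through the whole comparison and touches every gene group below. Among 7657 nuclear protein-coding genes with at least 5 FPKM in both libraries, the median difference was -0.71 log2 units for the 130 genes whose longest annotated transcript has up to 750 nt. It was -0.39 for the next 835 genes, of up to 1500 nt, -0.13 for 1647 genes of up to 2500 nt and 0.06 for 2470 genes of up to 4000 nt. It was 0.27 for 1729 genes of up to 6000 nt and 0.48 for 846 genes over 6000 nt. The share of genes above 0 was 5.38% in the shortest class and 85.5% in the longest. Spearman's rho across these genes was 0.56 with length and 0.01 with the GC content of the same transcripts, as a description, since genes of 2 libraries are not independent replicates.

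The length pattern was found in comparisons of R1 with libraries of the Sox17 line. They do not tell whether R1 or the Sox17 line is the one that stands apart. The dox libraries of the Sox17 line set against the same R1 library had the same order of medians by length, with rho 0.58 at 7 h, 0.47 at 21 h, 0.48 at 35 h and 0.43 at 49 h. These comparisons share R1. Between libraries of the Sox17 line, rho with length was 0.08 for 7 h against no dox, 0.03 for 35 h against 21 h and -0.04 for 49 h against 35 h. Between Sox17-XEN and wild-type XEN it was 0.12. Whether RNA quality, library preparation or the cells themselves go with the length pattern was not tested.

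**Figure D2:**
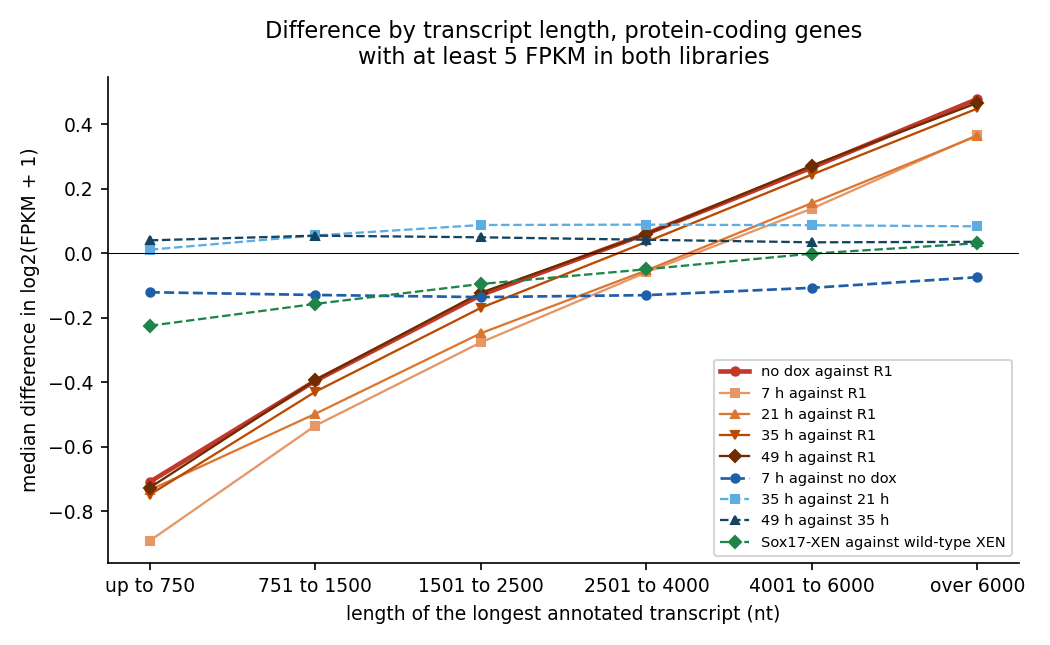
Median difference in log2(FPKM + 1) (vertical axis) in 6 classes of transcript length (horizontal axis, nt) for nuclear protein-coding genes with at least 5 FPKM in both libraries of a pair. The 5 comparisons that use R1 (solid lines) climb from -0.71 to 0.48 log2 units for no dox and in the same order for the dox times, and the 4 pairs without R1 (dashed lines) stay between -0.22 and 0.09.

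A second value, the length-adjusted difference, is therefore given beside the groups whose median lies 0.2 log2 units or more from 0. It has the running median of the difference over transcript length subtracted, an adjustment added after the pattern was seen. At the smaller size of 1 log2 unit, 530 rows were higher (4.06%) and 274 lower (2.1%) before adjustment. After it, 360 of 12669 rows with a length were higher (2.84%) and 131 lower (1.03%). These shares are the background for the counts of list members at that size given below.

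The 12 protein-coding rows called higher are 3 mitochondrial genes, 7 genes of the extracellular space or cell surface, the kinase gene Aak1 and a short predicted row. The surface and secreted genes are those for fibrillin-1 (Fbn1), collagen I (Col1a1), extracellular superoxide dismutase (Sod3), the complement protease MASP-1 (Masp1), syndecan-3 (Sdc3), the leucine-rich proteoglycan prolargin (Prelp) and the growth factor pleiotrophin (Ptn). Masp1 was at 17.9 FPKM in the Sox17 line and 3.18 FPKM in R1, and Sdc3 at 37.6 and 8.15 FPKM. Gm11032, a row of 102 nt that shares its locus with another, stood at 5013 FPKM in the Sox17 line and 806 FPKM in R1, and at a listed 0 at 49 h of dox. Aak1, which regulates clathrin-mediated uptake and has a longest transcript of 19341 nt, was at 9.21 FPKM in the Sox17 line and 1.302 FPKM in R1. Without rows that share a locus, 4 of the 12 were left, and with the length adjustment 6 of the 12 remained among 17.

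Col1a1 (mm9 chr11:94797538-94814356) was at 597 FPKM in the Sox17 line without dox and 148 FPKM in R1, a ratio of 4.02, which lies just inside 2 log2 units. Fbn1 (chr2:125126330-125333729), which codes for the main protein of extracellular microfibrils, was at 43.3 FPKM in the Sox17 line and 8.70 FPKM in R1 (2.19 log2 units). With the length adjustment Col1a1 was at 1.60 and Fbn1 at 1.70 log2 units. The other members just inside 2 log2 units were Ptn with 25.4 FPKM in the Sox17 line and 5.51 FPKM in R1, and Prelp with 4.93 and 0.429 FPKM. Just outside were the interleukin-1 receptor antagonist gene Il1rn (4.17 FPKM in the Sox17 line and 0.312 FPKM in R1), the collagen receptor gene Ddr2 (12.6 and 2.45 FPKM) and the actin-associated gene Synpo (16.6 and 3.51 FPKM).

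Fibroblast genes were higher in the Sox17 line library as a broad group with moderate size. Of 14 collagen genes of fibroblasts compared, 1 was past 2 log2 units and 9 were higher by at least 1, with a median of 1.46 log2 units against 0.09 over all rows compared. With the length adjustment the collagen median was 0.97, against 0.03 over all rows, and 6 were higher by at least 1. Collagen I and III genes stood beside Col1a1, with Col1a2 at 411 FPKM in the Sox17 line and 142 FPKM in R1 and Col3a1 at 134 FPKM in the Sox17 line and 36.6 FPKM in R1. The genes for the chains of the beaded-filament collagen VI followed, with Col6a1 at 81.6 and 28.8 FPKM, Col6a2 at 51.5 and 15.1 FPKM and Col6a3 at 79.5 and 20.6 FPKM in the Sox17 line and R1. The lowest collagen was Col15a1, with 1.41 FPKM in the Sox17 line and 1.60 FPKM in R1. In bulk RNA, the cell type that gave these transcripts, the number of such cells and their RNA per cell cannot be told apart.

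Elastic-fibre genes also lay on the higher side, with 17 compared, 1 past 2 log2 units (Fbn1), 10 higher by at least 1 and a median of 1.08 log2 units (0.82 and 5 higher with the length adjustment). Ltbp2, which codes for a microfibril-associated protein, was at 49.8 FPKM in the Sox17 line and 16.0 FPKM in R1. The genes for the crosslinking enzymes were Lox at 120 FPKM in the Sox17 line and 42.7 FPKM in R1, Loxl1 at 32.9 and 13.4 FPKM and Loxl2 at 64.2 and 25.8 FPKM. The microfibril-associated genes Mfap4 (2.16 FPKM in the Sox17 line and 2.52 FPKM in R1) and Mfap5 (12.2 and 14.7 FPKM) were the 2 members below 0.

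Of 28 other matrix and secreted fibroblast genes, 13 were higher and 2 lower by at least 1 log2 unit, and 5 were below 0, with a median of 0.98. With the length adjustment 12 were higher and 2 lower, with a median of 0.89. Fibronectin (Fn1), the cell-adhesive glycoprotein, was at 870 FPKM in the Sox17 line and 260 FPKM in R1. Thrombospondin-2 (Thbs2) was at 48.1 FPKM in the Sox17 line and 16.8 FPKM in R1, and periostin (Postn) at 56.4 and 20.7 FPKM. Tenascin-C (Tnc) was at 149 FPKM in the Sox17 line and 70.6 FPKM in R1. The group is not uniform, since Igfbp3, for an IGF-binding protein, was at 15.4 FPKM in the Sox17 line and 36.7 FPKM in R1 and so on the lower side while most collagens were on the higher.

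Of 17 fibroblast identity markers, 9 were higher by at least 1 log2 unit, with a median of 1.05 (0.97 and 8 higher with the length adjustment). The receptor genes Pdgfrb (15.8 FPKM in the Sox17 line and 5.76 FPKM in R1) and Axl (56.8 and 20.7 FPKM), the transcription factor gene Prrx1 (28.9 and 10.5 FPKM) and the surface sialomucin gene Cd248 (41.0 and 15.5 FPKM) were among them. Vim, for the intermediate filament vimentin, was at 745 FPKM in the Sox17 line and 305 FPKM in R1. Pdgfra, which also marks primitive endoderm, was at 4.996 FPKM in the Sox17 line and 1.01 FPKM in R1 (1.58 log2 units). Thy1, a surface marker of fibroblasts, was at 80.6 FPKM in the Sox17 line and 47.6 FPKM in R1.

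Contractile genes, which embryonic fibroblasts also express, were level between the libraries. Of 13 compared, 0 were past 1 log2 unit, and their median was 0.06. Smooth-muscle actin (Acta2) was at 228 FPKM in the Sox17 line and 204 FPKM in R1, and transgelin (Tagln) at 189 FPKM in the Sox17 line and 226 FPKM in R1. The actin-binding gene Cald1 was the highest (119 FPKM in the Sox17 line and 62.5 FPKM in R1), and the titin-linked Ankrd1 was the lowest (5.28 and 10.5 FPKM).

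Among the 14 fibroblast feeder markers (Col1a1, Col1a2, Col3a1, Col5a1, Col6a1, Fbn1, Postn, Thy1, Twist1, Prrx1, Acta2, Tagln, Dcn and Lum), 14 were at 1 FPKM or more in the Sox17 line and 13 in R1. Their summed level was 1983 FPKM in the Sox17 line without dox and 922 FPKM in R1. With dox for 7, 21, 35 and 49 h the sum was 947, 1242, 1661 and 2597 FPKM. It was 199 FPKM at day 6, 827 FPKM in Sox17-XEN and 30.3 FPKM in wild-type XEN. The sum at 7 h thus stood near that of R1, and the sum at 49 h above that of no dox. The contractile Acta2 (656 FPKM at 49 h and 228 FPKM without dox) and Tagln (475 and 189 FPKM) weigh heavily in the sum at 49 h. Col1a1, Col5a1, Prrx1 and Dcn were also higher at 49 h than without dox. Lower at 49 h were Col1a2 (365 and 411 FPKM), Col3a1 (93.5 and 134 FPKM), Col6a1, Fbn1, Postn, Thy1, Twist1 and Lum. Col1a1 followed the same course as the sum, with 233, 315, 436 and 629 FPKM at 7, 21, 35 and 49 h and 62.7 FPKM at day 6.

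Chemokine genes, which fibroblasts express in culture, lay on the same side. Of 10 chemokine and inflammatory genes compared, 4 were higher by at least 1 log2 unit and 0 lower, with a median of 0.80 (0.65 and 4 higher with the length adjustment). Cxcl5 was at 14.7 FPKM in the Sox17 line and 3.27 FPKM in R1, and Cxcl1 at 7.61 and 2.42 FPKM, both genes of chemokines that attract neutrophils. Ccl2 was at 91.0 FPKM in the Sox17 line and 28.6 FPKM in R1, and Ccl7 at 49.4 and 19.9 FPKM, both genes of chemokines that attract monocytes. The interferon-inducible Cxcl10 was at 0.164 FPKM in the Sox17 line and 1.09 FPKM in R1, the lowest of the list.

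Of 4 macrophage markers, 2 were over 1 FPKM in both libraries, the lysosomal Cd68 (6.17 FPKM in the Sox17 line and 10.3 FPKM in R1) and the lysozyme gene Lyz2 (6.07 and 5.63 FPKM). The macrophage receptor gene Csf1r (0.177 FPKM in the Sox17 line and 0.103 FPKM in R1) and the leukocyte gene Ptprc (0.0416 and 0.0271 FPKM) were near 0. The endothelial gene Cdh5 was at 0.0753 FPKM in the Sox17 line and 0.0373 FPKM in R1. Pecam1, which ESCs express as well, was at 11.6 FPKM in the Sox17 line and 14.7 FPKM in R1. Over the 13 macrophage, blood and endothelial genes 5 reached 1 FPKM, with a median of -0.04 and 0 past 1 log2 unit.

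**Figure D3:**
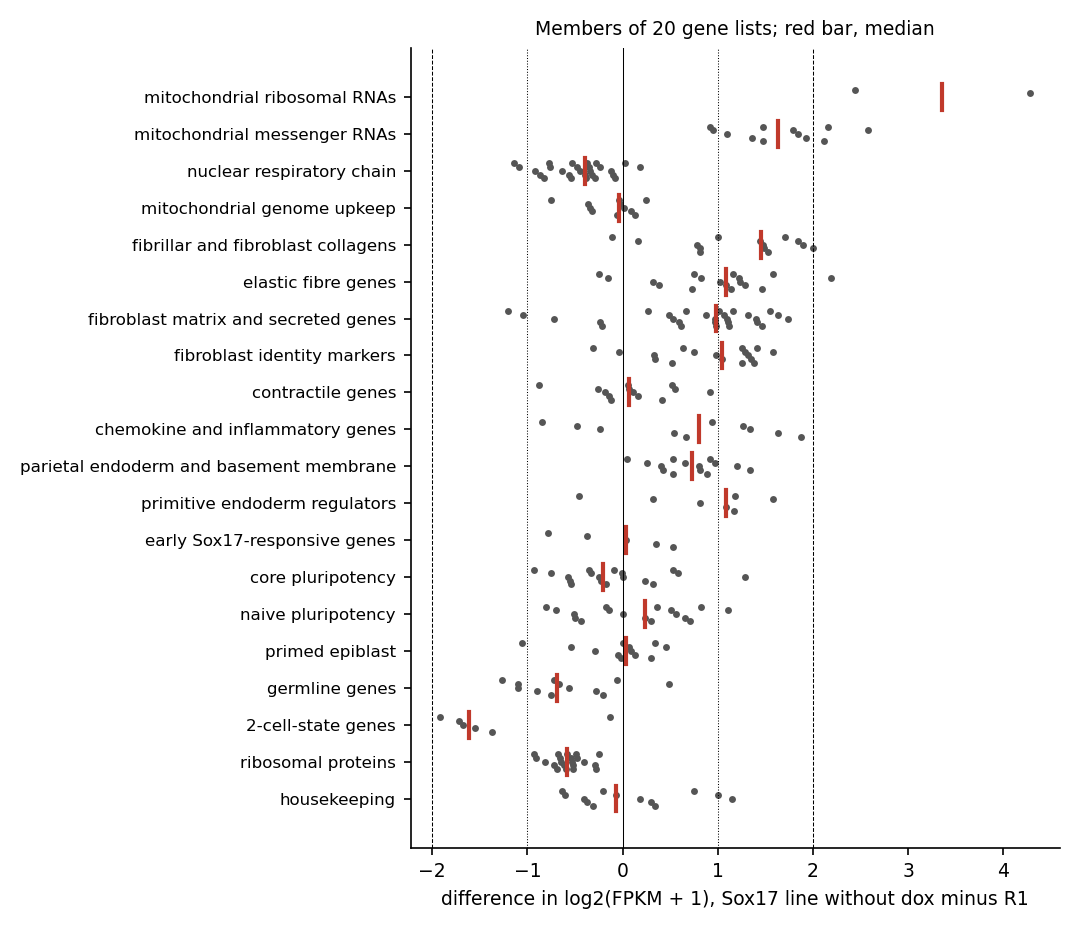
Difference in log2(FPKM + 1), Sox17 line without dox minus R1 (horizontal axis), of the members compared in 20 gene lists, with 1 point a gene, a red bar at each list's median, dotted lines at 1 and -1 and dashed lines at 2 and -2. Mitochondrial RNAs and the 4 fibroblast lists lie to the right, 2-cell-state genes and ribosomal protein genes to the left, and contractile, early Sox17-responsive and primed epiblast genes around 0.

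Transcripts of the mitochondrial genome were higher in the Sox17 line library without exception among those compared. All 12 messenger RNAs compared were above 0, 10 by at least 1 log2 unit and 3 by at least 2, with a median of 1.63. They are short, with 204 to 1824 nt, so the length pattern runs the other way, and their median was 2.14 with the length adjustment. The complex I subunit mt-Nd5 was at 972 FPKM in the Sox17 line and 162 FPKM in R1 (2.58 log2 units). The complex I subunits mt-Nd1 (2404 FPKM in the Sox17 line and 553 FPKM in R1) and mt-Nd2 (1174 and 263 FPKM) were the other 2 past 2 log2 units. The complex IV subunit mt-Co1 (5228 FPKM in the Sox17 line and 2756 FPKM in R1) and mt-Co3 (3665 and 1892 FPKM) were the lowest. The 6 complex I subunits compared, from mt-Nd3 with 1119 FPKM in the Sox17 line and 322 FPKM in R1 (1.79 log2 units) up to mt-Nd5, all had larger differences than the other 6 messenger RNAs. The rows of mt-Nd5 and mt-Nd6 share a locus with each other. Those of mt-Nd1, mt-Nd2 and mt-Nd4 also share their listed locus with another row, and that of mt-Nd3 does not. All 3 messenger RNAs past 2 log2 units thus share a locus.

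The 2 mitochondrial ribosomal RNAs had a median of 3.36 log2 units (3.72 with the length adjustment). The large-subunit RNA mt-Rnr2 was at 207 FPKM in the Sox17 line without dox and 9.69 FPKM in R1, a ratio of 21.4 and a difference of 4.28 log2 units. The small-subunit RNA mt-Rnr1 was at 96.2 FPKM in the Sox17 line and 16.9 FPKM in R1 (2.44 log2 units). In the dox libraries of the same line mt-Rnr2 was at 20.6 to 23.9 FPKM at 7 to 49 h and at 198 FPKM at day 6, so no dox and day 6 stood apart from the times between them. The 22 mitochondrial transfer RNAs were listed at 0 in both libraries, so none was compared. In all, mitochondrial rows made up 6.44% of the summed FPKM in the Sox17 line without dox and 2.17% in R1, against 5.05% to 5.67% at 7 to 49 h of dox.

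Nuclear genes of the same chain lay mostly on the lower side. Of 27 nuclear genes of the respiratory chain compared, 25 were below 0, 2 lower by at least 1 log2 unit and 0 higher, with a median of -0.39 log2 units. The length adjustment brought that median to -0.14. The complex I subunit Ndufa1 was at 62.7 FPKM in the Sox17 line and 139 FPKM in R1, and the complex IV subunit Cox6c at 206 FPKM in the Sox17 line and 437 FPKM in R1. Genes for the upkeep of the mitochondrial genome had a median of -0.04 over 11 compared, 0 past 1 log2 unit. The mitochondrial RNA polymerase gene Polrmt was at 19.4 FPKM in the Sox17 line and 17.6 FPKM in R1.

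Ribosomal protein genes lay mostly on the lower side. On the list, all 21 compared were below 0, 0 of them by 1 log2 unit, with a median of -0.59 that was -0.32 with the length adjustment. Their longest transcripts have a median of 1358 nt. Rplp1, a protein of the ribosomal stalk, was at 2067 FPKM in the Sox17 line and 3943 FPKM in R1, the lowest of the list. Rps14, of the small subunit, was at 1107 FPKM in the Sox17 line and 1948 FPKM in R1. Over all 82 ribosomal protein symbols with at least 5 FPKM in 1 library, a count added after the values were seen, 82 were below 0 and 10 were lower by at least 1 log2 unit, with a median of -0.77. Rpl36 (776 FPKM in the Sox17 line and 1834 FPKM in R1) and Rpl38 (644 and 1520 FPKM), which are among the 10 and not on the list, differed by -1.24 log2 units each, and by -0.64 with the length adjustment.

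The 2 protein-coding rows called lower are Rpl10-ps3 and 2210012G02Rik. 2210012G02Rik (mm9 chr4:106799218-106873601), which shares its locus with another row, was at 5.36 FPKM in the Sox17 line and 44.7 FPKM in R1 (-2.84 log2 units). It was between 4.87 and 7.29 FPKM in the other 6 libraries of the Sox17 line and at 102 FPKM in wild-type XEN, so both wild-type libraries were high and all 7 libraries of the Sox17 line were low. Rpl10-ps3, a copy of a ribosomal protein gene, was at 2.72 FPKM in the Sox17 line without dox and 22.7 FPKM in R1. It was at 2.55 FPKM at 7 h and at 13.8 to 16.0 FPKM at 21 to 49 h, so the low value was shared with 7 h and not with the later times.

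Genes of the 2-cell-like state, which a small share of ESCs enters at any time, were lower in the Sox17 line. Of 6 compared, 5 were lower by at least 1 log2 unit and 0 higher, with a median of -1.61 (-1.48 with the length adjustment). Zscan4c, which acts in telomere upkeep, was at 5.16 FPKM in the Sox17 line and 22.3 FPKM in R1. Zscan4d was at 8.19 FPKM in the Sox17 line and 29.3 FPKM in R1, and Zscan4f at 6.70 and 23.5 FPKM. Tmem92 was at 1.59 FPKM in the Sox17 line and 6.59 FPKM in R1, and Gm4340 at 0.318 and 2.40 FPKM. Eif1a, a translation initiation factor gene, was level at 84.1 FPKM in the Sox17 line and 92.4 FPKM in R1. The Zscan4 genes are near-identical copies between which reads can be split, so the value of each is uncertain. With dox for 7, 21, 35 and 49 h Zscan4c was at 5.58, 3.56, 3.02 and 1.79 FPKM.

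Other predicted rows on the lower side are named after their values were seen. The rows Gm6763 (14.5 FPKM in the Sox17 line and 56.4 FPKM in R1), Gm5662 (8.97 and 29.5 FPKM), Gm2016 (2.88 and 9.47 FPKM) and Gm8300 (3.90 and 12.7 FPKM) were all lower by more than 1 log2 unit. BB287469 was at 1.52 FPKM in the Sox17 line and 6.94 FPKM in R1. Germline genes, part of which ESCs also express, had 3 of 12 lower by at least 1 log2 unit (2.1% of all rows) and 0 higher, with a median of -0.69. With the length adjustment 1 of the 3, Rhox9, stayed lower by that size and the median was -0.54. The synaptonemal complex gene Sycp3 was at 8.50 FPKM in the Sox17 line and 21.8 FPKM in R1, the meiotic gene Hormad1 at 3.53 and 8.74 FPKM, and the X-linked homeobox gene Rhox9 at 7.09 and 16.3 FPKM.

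The other large differences among genes at 5 FPKM or more are of mixed roles. Itpripl2 has 2 rows, with 14.8 FPKM in the Sox17 line and 2.51 FPKM in R1 in one and 6.58 and 4.84 FPKM in the other. The small nucleolar RNA host gene Snhg7 was at 7.57 FPKM in the Sox17 line and 31.4 FPKM in R1, Fam25c at 14.9 and 47.6 FPKM, Zscan4b at 2.83 and 11.1 FPKM and Zscan4-ps2 at 3.47 and 12.7 FPKM. Others on the lower side include Aass, for an enzyme of lysine breakdown (2.07 FPKM in the Sox17 line and 9.40 FPKM in R1), the X-linked Pnma5 (4.42 and 16.3 FPKM), the muscle-type complex IV subunit gene Cox7a1 (15.02 and 47.4 FPKM) and the cytokine gene Ltb (1.17 and 5.35 FPKM). The row Gt(ROSA)26Sor, the transcript of the Rosa26 locus on chromosome 6 into which transgenes are often placed, was at 4.40 FPKM in the Sox17 line and 14.8 FPKM in R1. It was at 7.36 to 9.41 FPKM at 7 to 49 h of dox. The row shares its locus and is annotated antisense, so reads of its neighbour cannot be told from its own. The metal-binding genes Mt1 (130 FPKM in the Sox17 line and 329 FPKM in R1) and Mt2 (133 and 372 FPKM), named after their values were seen, were also lower.

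Of the 4 antisense rows past 2 log2 units, 2 sit on fibroblast genes described above. Apol7d, an apolipoprotein L symbol, is listed at the locus of Fn1 (mm9 chr1:71632094-71709417) and was at 101 FPKM in the Sox17 line and 15.8 FPKM in R1. D030025P21Rik is listed at the locus of Ltbp2 and was at 10.9 FPKM in the Sox17 line and 1.66 FPKM in R1. The use of strand is not given in the sources used here, so reads of these rows cannot be told from those of the fibroblast genes they overlap. The others are Gm17092 at the locus of the RNA-binding protein gene Hnrnpd, with 11.6 FPKM in the Sox17 line and 0.852 FPKM in R1, and 2610019E17Rik at the locus of Rab26, with 7.74 and 48.8 FPKM. Hnrnpd itself was at 244 FPKM in the Sox17 line and 277 FPKM in R1, and Rab26 at 1.62 and 2.46 FPKM. The other apolipoprotein L gene compared, Apol6, was at 1.74 FPKM in the Sox17 line and 2.16 FPKM in R1, and the list of 2 had a median of 1.197 (1.42 with the length adjustment).

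Pluripotency genes were level within 1 log2 unit with few exceptions. Of 18 core genes compared, 1 was higher by at least 1 log2 unit and 0 lower, near the 4.06% and 2.1% of all rows compared. Their median was -0.20 (-0.12 with the length adjustment). The exception was Trim71, an RNA-binding protein gene with a transcript of 9332 nt, at 13.8 FPKM in the Sox17 line and 5.07 FPKM in R1 (1.29 log2 units, and 0.79 with the length adjustment). Dppa5a, a short transcript of 619 nt, was at 1375 FPKM in the Sox17 line and 2625 FPKM in R1 (-0.93, and -0.33 with the adjustment). Of 17 naive pluripotency genes 1 was higher, the cytokine receptor subunit Il6st (20.5 FPKM in the Sox17 line and 8.95 FPKM in R1), with a median of 0.24 (0.10 with the length adjustment). Of 12 primed epiblast genes 1 was lower, the Nodal inhibitor Lefty1 (99.9 FPKM in the Sox17 line and 209 FPKM in R1), with a median of 0.03.

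Among endoderm genes, those past 1 log2 unit were matrix, receptor and adaptor genes. Of 15 primitive endoderm regulators 7 were compared and 4 were higher by at least 1 log2 unit, with a median of 1.09, against 4.06% of all rows. With the length adjustment only Pdgfra of the 4 stayed higher by that size, and the median was 0.61. They were Pdgfra, the collagen IV genes Col4a1 (51.7 FPKM in the Sox17 line and 23.8 FPKM in R1) and Col4a2 (44.0 and 18.9 FPKM), and the endocytic adaptor Dab2 (8.52 and 3.20 FPKM). Of 14 parietal endoderm and basement membrane genes 2 were higher by that size, with a median of 0.73 (0.51 with the length adjustment), namely nidogen-1 (Nid1, 55.2 FPKM in the Sox17 line and 21.2 FPKM in R1) and thrombomodulin (Thbd, 8.77 and 3.24 FPKM). Of 16 visceral endoderm genes 8 were compared, 0 of them past 1 log2 unit, with a median of -0.22 (-0.13 with the length adjustment). The visceral endoderm genes Afp and Ttr were under 1 FPKM in both libraries.

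Most genes higher by the smaller size are on none of the fibroblast lists. Of 9246 rows with at least 5 FPKM in 1 library, 417 (4.51%) were higher and 214 (2.31%) lower by at least 1 log2 unit. Of the 8712 protein-coding ones, 362 (4.16%) were higher and 112 (1.29%) lower by that size. Among the nuclear ones, 37 of the higher genes are in a fibroblast list and 315 are in none. The 315 have a median length of 6299 nt and the 112 lower genes one of 1488.5 nt. Of the 315, 113 were still higher by 1 log2 unit with the length adjustment, and of the 112, 47 were still lower. Examples chosen after their values were seen are the BMP receptor gene Bmpr2 (5.11 FPKM in the Sox17 line and 0.866 FPKM in R1), the chromatin remodeller gene Srcap (15.05 and 3.34 FPKM, with 12.1 and 10.2 FPKM in its second row) and the Wnt pathway gene Apc (18.6 and 5.72 FPKM).

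In the dox libraries of the same line, both sets of higher genes were lower at 7 h than without dox and rose to 49 h. The 37 fibroblast-list genes had a median level of 5.84 log2 units in the Sox17 line without dox and 4.44 in R1, with 4.67, 4.99, 5.39 and 5.88 at 7, 21, 35 and 49 h. The 315 other higher genes had a median level of 3.86 without dox and 2.56 in R1, with 3.37, 3.64, 3.75 and 3.93 at the same 4 times. The 112 lower genes had a median level of 3.77 without dox and 5.05 in R1, with 3.84 to 3.89 at 7 to 49 h. The fibroblast genes thus came close to the R1 level at 7 h, and the lower genes were at the level of no dox in all 4 dox libraries from 7 to 49 h. Since the sets were chosen by the difference between no dox and R1, those 2 levels are a description. The lower level of both higher sets at 7 h can in part come from that choice.

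**Figure D4:**
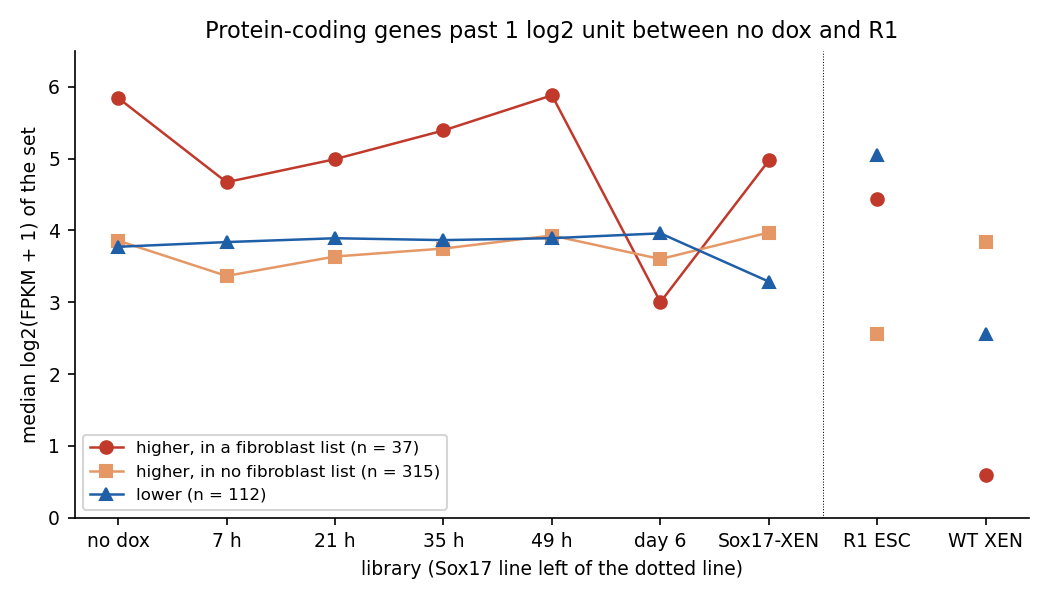
Median log2(FPKM + 1) (vertical axis) in each of the 9 libraries (horizontal axis) of nuclear protein-coding genes that differ by at least 1 log2 unit between the Sox17 line without dox and R1, in 3 sets. The fibroblast-list genes (red) stand at 4.67 at 7 h, near 4.44 in R1, and the lower genes (blue) stay at 3.77 to 3.89 from no dox to 49 h, below 5.05 in R1.

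**Figure D5:**
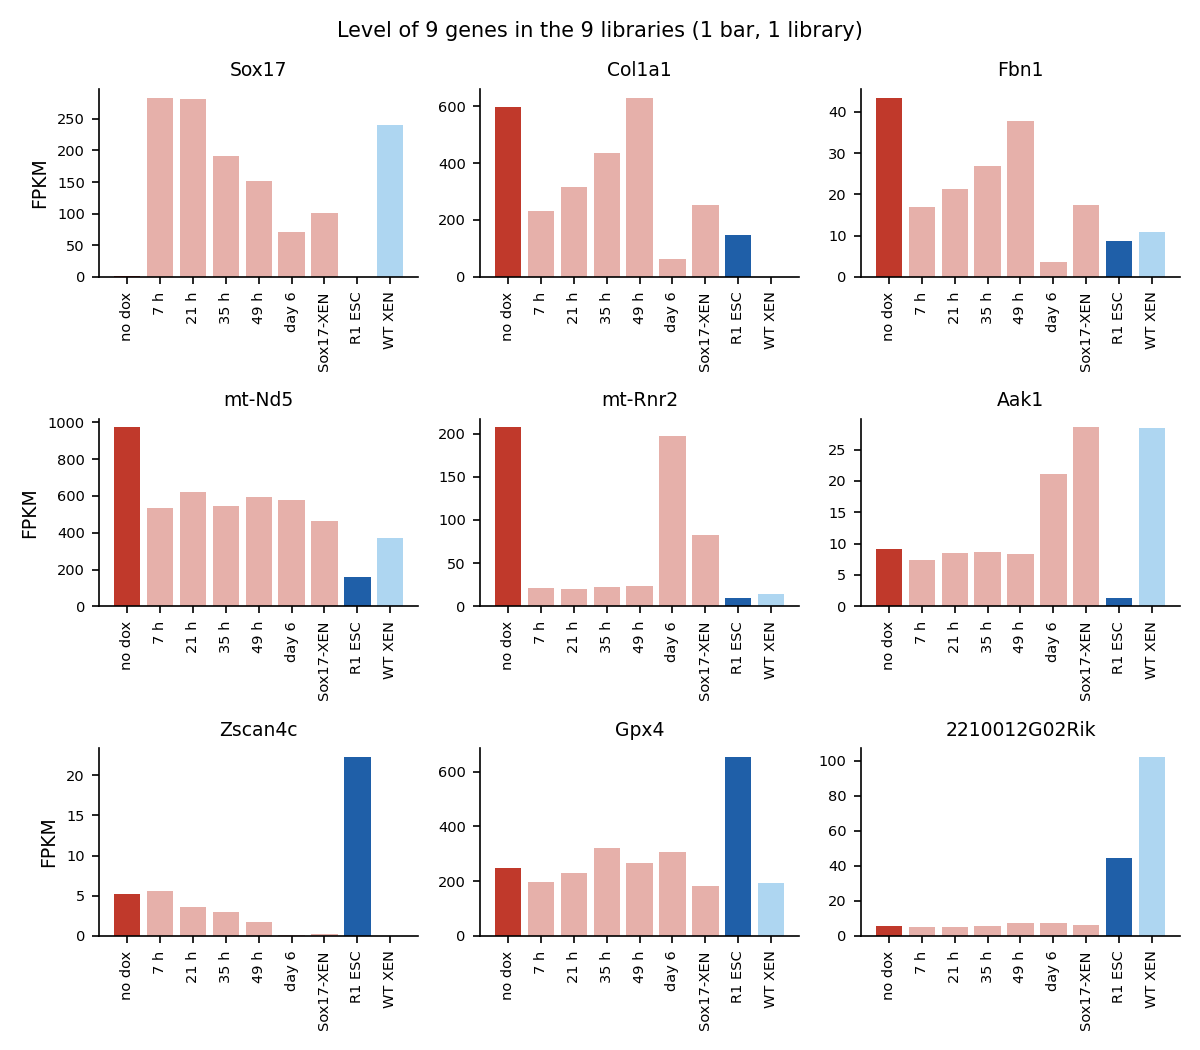
FPKM (vertical axes, linear, from 0) of 9 genes in the 9 libraries, with 1 bar a library, the Sox17 line without dox in dark red, its other libraries in light red, R1 in dark blue and wild-type XEN in light blue. Col1a1 and Fbn1 vary along the dox course, mt-Rnr2 is high without dox (207 FPKM) and at day 6 (198 FPKM), and Zscan4c and 2210012G02Rik are low in every library of the Sox17 line and high in R1.

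Signalling and stress lists held few members past 1 log2 unit, where 4.06% of all rows compared were higher and 2.1% lower by that size. With lists this small, 1 member is near those shares. Antioxidant genes had a median of -0.03 over 16, with Sod3 higher (8.88 FPKM in the Sox17 line and 1.11 FPKM in R1) and the lipid peroxidase gene Gpx4 lower (249 and 654 FPKM). Interferon and MHC class I genes had 3 of 16 lower and a median of -0.31 (1 lower, Gbp2, and -0.06 with the length adjustment), with Ifitm1 at 186 FPKM in the Sox17 line and 408 FPKM in R1, the tethering factor gene Bst2 at 42.6 and 104 FPKM, and Gbp2 at 2.16 and 5.91 FPKM. Wnt and BMP targets had 1 of 12 higher, the cyclin gene Ccnd1 (109 FPKM in the Sox17 line and 51.5 FPKM in R1), with a median of -0.40 (-0.29 with the length adjustment). ERK output genes had 0 of 14 past 1 log2 unit and a median of 0.32 (0.30 and 1 higher with the length adjustment). The p53 targets had 1 of 13 higher, Ccng1 (105 FPKM in the Sox17 line and 51.7 FPKM in R1), with a median of 0.38 (0.27 with the length adjustment). ER stress and secretion genes had 1 of 15 lower, Chac1 (5.82 FPKM in the Sox17 line and 12.8 FPKM in R1), with a median of -0.03.

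Most metabolic and growth lists were near 0. Cholesterol synthesis genes had a median of 0.31 over 13 (0.05 with the length adjustment), glycolysis and hypoxia genes -0.00 over 19 and proliferation genes -0.03 over 17, each with 0 past 1 log2 unit. Housekeeping genes had a median of -0.07 over 13, with 2 higher, β-actin (Actb, 928 FPKM in the Sox17 line and 419 FPKM in R1) and the RNA polymerase II subunit Polr2a (89.5 and 44.1 FPKM). Gapdh was at 2131 FPKM in the Sox17 line and 3316 FPKM in R1. Common housekeeping genes thus differed from each other by more than 1 log2 unit between these libraries.

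Imprinted genes had 2 of 22 higher and 2 lower by at least 1 log2 unit (4.06% and 2.1% of all rows compared), with a median of -0.00. The growth-restricting Igf2r was at 25.8 FPKM in the Sox17 line and 11.2 FPKM in R1, and the zinc finger gene Plagl1 at 8.38 and 2.14 FPKM. Nnat was at 3.50 FPKM in the Sox17 line and 10.4 FPKM in R1, and Phlda2 at 30.7 and 63.6 FPKM. Both libraries had Y-linked transcripts, with Ddx3y at 10.96 FPKM in the Sox17 line and 8.53 FPKM in R1. Eif2s3y was at 34.2 and 45.4 FPKM, and Xist, the X-inactivation RNA, at 10.2 and 6.21 FPKM. In bulk RNA of ESCs with fibroblasts, the cells that gave these transcripts cannot be told apart. That list of Y-linked and X-inactivation genes had a median of 0.34 over 7 (0.02 with the length adjustment), 0 past 1 log2 unit.

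Lists of other lineages had few members at 1 FPKM. Trophoblast genes had 2 of 6 lower by at least 1 log2 unit (2.1% of all rows compared), with a median of 0.06. They were the keratin genes Krt8 (15.2 FPKM in the Sox17 line and 37.1 FPKM in R1) and Krt18 (11.3 and 25.7 FPKM). Mesoderm and neuroectoderm genes had a median of 0.00 over 5, and muscle, fat and cartilage genes one of 0.37 over 6 (0.20 with the length adjustment), with the bone factor gene Runx2 higher (4.45 FPKM in the Sox17 line and 1.14 FPKM in R1). Replication-dependent histone genes, whose messages lack a poly(A) tail, had 7 of 19 compared with a median of -0.02 and 1 lower, Hist1h4d (0.644 and 2.63 FPKM). Of 13 structural small RNAs 3 were compared, with a median of -1.02 (-0.42 with the length adjustment) and 2 lower by at least 1 log2 unit, Snora73a (19.2 FPKM in the Sox17 line and 49.4 FPKM in R1) and Snora73b (42.95 and 87.9 FPKM). The 4 near-identical dynein light chain genes of chromosome 17 had a median of -0.09, and Dynlt1f alone was past 2 log2 units (4.90 and 0.228 FPKM), a value that the split of reads between copies leaves uncertain.

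Several of the calls at 1 log2 unit in the smaller lists do not hold with the length adjustment. It left 0 members past 1 log2 unit in the lists of core pluripotency, naive pluripotency, primed epiblast, Wnt and BMP, p53, muscle, histone and structural small RNA genes. Krt8 and Nnat stayed lower, and Actb and Plagl1 stayed higher by that size, while Krt18, Phlda2, Gpx4 and Chac1 on the lower side and Polr2a, Igf2r and Nid1 on the higher side came within 1 log2 unit. The adjustment also brought some members past 1 log2 unit. Among them were Fosl1 (1.09), Pdia4 (1.01) and Snai1 (1.01) on the higher side and Pax6 (-1.20) on the lower.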

How the data were processed

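Per the labels' protocols, Trizol total RNA went into TruSeq RNA libraries. TopHat2 2.0.11, Cufflinks 2.1.2, Cuffdiff with no version and build mm9 are named in the submitters' processing notes. Levels are FPKM values that the authors deposited for each gene, with bounds and a status, and values whose status was not OK in both libraries (457 rows) were left out. Differences were computed with Python 3.11.15, numpy 2.4.6 and pandas 2.3.3 on log2(FPKM + 1), and figures were drawn with matplotlib 3.10.9. Gene type, longest transcript length and GC content come from GENCODE M21, matched by identifier for 12669 of 13070 rows compared. Coordinates are 1-based in mm9 unless RefSeq is named. The length adjustment used 20 quantile bins and was tested on simulated data. Named genes are Sox17, Col1a1, Fbn1, protein-coding genes past 2 log2 units, the 15 largest differences each way at 5 FPKM or more (predicted Gm and Rik rows, miRNA and small RNA rows left out), up to 6 members of each of 41 lists, and 3 rows on each side of the threshold. Members needed to describe a group were added after their values were seen. The members and lists were chosen with earlier results of these data known. A member of the fibroblast matrix list is not reported here.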

Additional observations from a re-analysis of the deposited data

How the results depend on the processing

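No paired analysis was possible because each group has 1 library. With a pseudocount of 0.1 FPKM, the counts were 129 higher and 73 lower, for protein-coding rows 56 and 15, and Sox17 differed by 1.94 log2 units. With a pseudocount of 0.5 FPKM, 24 protein-coding rows were higher. Without rows that share a locus, the counts were 15 and 12, for protein-coding rows 4 and 1. At 5 FPKM or more and 1 log2 unit that setting left 215 higher and 109 lower, and the length adjustment left 236 and 106. With the length adjustment, 21 rows were lower by 2 log2 units. Leaving out mitochondrial rows and rescaling shifted differences by up to 0.23 log2 units and gave 21 protein-coding rows higher. The shift was smaller at low levels, with Sox17 going from 0.71 to 0.79 log2 units. No row past 2 log2 units (0 higher, 0 lower, also among protein-coding rows) had intervals that do not overlap. Of all rows compared, 98.6% have a lower bound of 0 in both libraries. Such intervals always overlap, so this setting could tell little. A size of 1 log2 unit gave 530 higher and 274 lower rows, 435 and 131 of them protein-coding, and 3 log2 units gave 25 and 19, with 0 and 0 protein-coding. Without short RNA rows and rows of no type, 17 were higher and 5 lower. The causes of these shifts were not tested beyond what each setting removes. Col1a1, Fbn1 and mt-Rnr2 moved by less than 1.5 times under the alternatives run. Of 40 list medians, 13, all between -0.20 and 0.03, changed sign under a scaling or the length adjustment. Of the 55 higher and 34 lower rows, 39 and 30 had a value under 1 FPKM in 1 library at least, while 45 and 29 had at least 5 FPKM in 1 library. Depth can limit values under 1 FPKM, and its part in these rows was not tested.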
